A study of Mus musculus with 9 samples.

Results

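The matrix metalloproteases (MMPs), the ADAM and ADAMTS proteases, the ADAMTS-like proteins and the tissue inhibitors of metalloproteases (TIMPs) were followed across the 3 treatments of cultured mouse podocytes. Members are the 82 genes, of 22180 measured with 1 probe set each, whose symbol is Mmp, Adam, Adamts, Adamtsl or Timp followed by a number and, in some, a letter. They are 22 Mmp, 33 Adam, 18 Adamts, 5 Adamtsl and 4 Timp genes, Adam34l among them because its symbol has that form. Podocytes are the epithelial cells that cover the glomerular capillaries of the kidney. The cells were differentiated for 11 days at 37 °C. They then received the vehicle DMSO, 2.5 µM thapsigargin for 16 hours, or 2.5 µM thapsigargin with 10 µM forskolin for 16 hours, with 3 arrays per group and no other agent or allele named in the labels. Thapsigargin blocks the SERCA pump and so drains calcium from the endoplasmic reticulum (ER), while forskolin switches on adenylyl cyclase and raises cAMP. No group received forskolin alone. The labels name no cell line and do not say in what the biological replicates of a group were separate, so p-values cover the array-to-array spread alone, which may be technical.

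MMPs are zinc-dependent secreted or membrane-bound enzymes that cut collagens, laminins and other matrix proteins. ADAMs are membrane proteins, many of which release the outer part of other membrane proteins, and ADAMTS enzymes are secreted and cut proteoglycans, procollagens and microfibril proteins. ADAMTS-like proteins resemble ADAMTS enzymes without the protease domain, and TIMPs bind and block MMPs and several ADAM and ADAMTS enzymes. In the glomerulus these enzymes act on the basement membrane that podocytes help to make and on receptors and growth factors at the podocyte surface.

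Values are log2 RMA values, in which background and overall distribution were evened out over the arrays before deposit, so a change is relative to the bulk of genes on the array. Detection was not tested, and values of different probe sets are not compared as levels. Array medians lay between 5.80 and 5.88, and correlations over all probe sets were 0.989 to 0.993 within groups and 0.966 to 0.992 between groups. Genes known to respond to the treatments moved: the ER chaperone gene Hspa5 rose by 1.60 and Ddit3, which encodes the stress factor CHOP, by 2.75 with thapsigargin, and the cAMP-responsive gene Nr4a1 rose by 3.22 when forskolin was added. Of 9 measured podocyte markers 8 had a DMSO mean above the median of all probe sets, the lowest being Ptpro at 5.35. The mean log2 value of the podocyte markers was 8.50 to 8.53 on the DMSO arrays, 7.67 to 7.69 on the thapsigargin arrays and 7.44 on the combined arrays. Its markers did not move alike: with thapsigargin Plce1 stood at -3.45 and Synpo at -2.52, Podxl, Actn4 and Wt1 fell by less, Cd2ap rose by 0.23, and Nphs1, Tcf21 and Ptpro were not called. Markers of other cells were present too. The mean of 5 tubular markers was 8.65 to 8.70, 6.84 to 6.89 and 7.08 to 7.11 in the same order of groups, and that of 5 mesangial and pericyte markers 8.75 to 8.82, 8.11 to 8.19 and 8.46 to 8.63. The latter mean joins opposite changes, since with forskolin added Mcam rose by 2.58 while Acta2 stood at -1.16, and against DMSO they stood at 1.85 and -2.0. For 7 macrophage and leukocyte markers the ranges were 6.17 to 6.30, 5.92 to 6.06 and 6.22 to 6.28. Ptprc, which defines leukocytes, had group means of 3.72 to 3.80. Csf1r, Cd14 and Cd68 had DMSO means above the median of all probe sets, at 7.98, 7.97 and 7.94. Csf1r stood at -1.18 with thapsigargin and rose by 0.82 with forskolin added, and Cd14 rose by 0.87 with forskolin added. The rest of these markers were not called in any comparison. For 5 endothelial markers the ranges were 6.60 to 6.66, 6.40 to 6.51 and 6.34 to 6.43. With thapsigargin 1 of these 5 was called lower and none higher. Their changes ran from -1.21 to 0.22 with a median of 0.06, so the lower mean does not describe most of them. In these bulk samples fewer cells of a type and less RNA per cell cannot be told apart, and the part of these shifts in the results below was not tested.

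A smaller share of members than of all genes lay in the upper part of the array's range. The median of all 41345 probe sets was 5.83, and 39 of the 82 members (47.6%) had a mean above it with DMSO, 36 (43.9%) with thapsigargin and 34 (41.5%) with thapsigargin and forskolin. Among all 22180 genes the shares were 60.0%, 58.2% and 58.2%. Single arrays held 37 to 39, 35 to 37 and 33 to 34 such members. There were 33 members above the median in all groups, 42 in none, and 7 in some: Adam19, Adamts16, Mmp9, Mmp10, Mmp17, Mmp21 and Mmp25. By family, 11 of 22 Mmp, 10 of 33 Adam, 11 of 18 Adamts, 4 of 5 Adamtsl and 3 of 4 Timp genes lay above it with DMSO, against 7, 9, 11, 4 and 3 in the combined group.

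Thapsigargin lowered more members than it raised. In limma with Benjamini-Hochberg adjustment over all genes, 4 of 82 members were called higher (4.88%), where 18.2% of all genes were, and 21 lower (25.6%), where 16.9% of all genes were. The median log2 change was -0.09 over the members and -0.04 over all genes, and the 5th and 95th percentiles were -1.32 and 0.24 over the members against -0.73 and 0.78 over all genes. Adding forskolin to thapsigargin raised 6 members (7.32%), where 3.7% of all genes were called higher, and lowered 5 (6.1%), where 4.17% were called lower. The medians of this comparison were -0.00 and -0.01. Against DMSO, the combined treatment left 5 members higher (6.1%), where 17.9% of all genes were higher, and 23 lower (28.0%), where 16.7% were lower, with medians of -0.14 and -0.04. Call shares in either direction were 35.0% of all genes with thapsigargin, 7.87% with forskolin added and 34.5% for the combined treatment against DMSO.

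With thapsigargin 9 members had all arrays above DMSO, where 21.6% of all genes did, and 23 all arrays below, where 22.3% did (43.9% either way). With forskolin added 8 members lay above thapsigargin alone, where 12.1% of all genes did, and 9 below, where 14.0% did (26.1% either way), so that the members' shares by this count were not above those of all genes. For the combined treatment against DMSO 8 lay above, where 21.4% of all genes did, and 28 below, where 21.2% did (42.6% either way). Most calls fell among the 36 members whose mean over the 9 arrays exceeded the median of all probe sets. Of these, 4 rose and 18 fell with thapsigargin, where 29.8% and 25.4% of 13048 genes that bright did. With forskolin added 6 rose and 5 fell, where 5.95% and 6.88% of such genes did, and in the combined group 5 were higher and 20 lower than with DMSO, where 28.9% and 24.8% were. The other 46 members held 3 of the calls with thapsigargin, 0 with forskolin added and 3 in the combined group against DMSO. All of these were lower. The comparisons share arrays in pairs, so their values are given side by side and are not independent of each other.

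**Figure D1:**
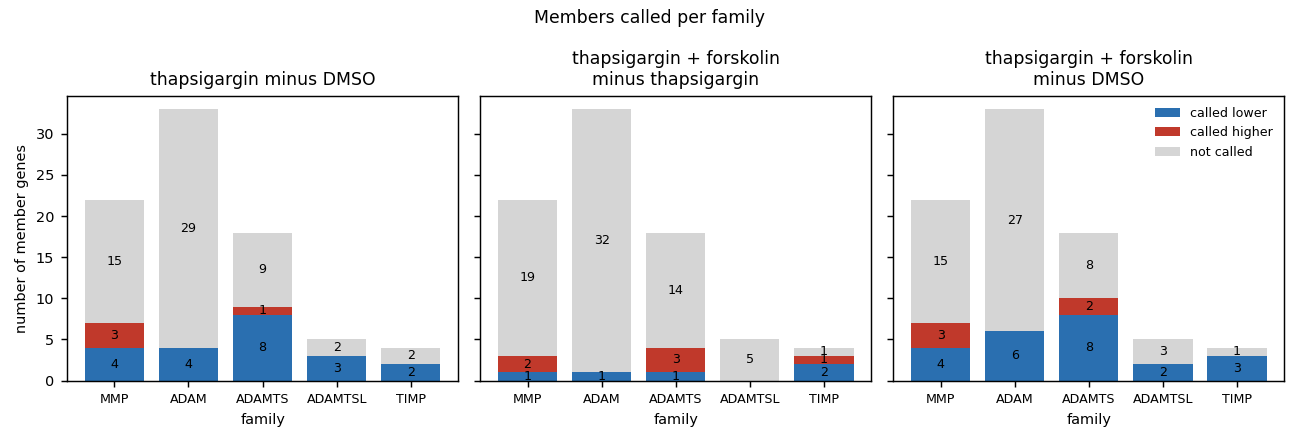
Number of member genes (vertical axis) of each family (horizontal axis) called lower, called higher or not called by limma in each of the 3 comparisons. With thapsigargin 8 of 18 ADAMTS genes were called lower (44.4%) and 1 higher (5.56%), where 16.9% and 18.2% of all genes were. With forskolin added 3 were called higher (16.7%) and 1 lower (5.56%), where 3.7% and 4.17% of all genes were.

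The proteoglycan-cleaving ADAMTS genes included the largest fall. Of 7 measured, 4 fell with thapsigargin (57.1%) and 0 rose, where 16.9% of all genes fell and 18.2% rose. Adamts4, which encodes an aggrecan-cleaving enzyme, read 9.04, 8.98 and 9.13 on the DMSO arrays, 6.52, 6.65 and 6.52 on the thapsigargin arrays and 6.76, 6.56 and 6.57 on the combined arrays. Every array with thapsigargin lay more than 2 log2 units below every DMSO array, and both thapsigargin groups overlapped. The fall was 5.6-fold (log2 change -2.49 ± 0.07, limma SE, n = 3 arrays per group, limma adjusted p = 1.56e-08), the largest among the 82 members. With forskolin added Adamts4 differed from thapsigargin alone by 0.07 ± 0.07 (95% interval -0.10 to 0.23, limma adjusted p = 0.719).

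Adamts1 moved in opposite directions in the 2 steps. This gene, whose product cuts versican and aggrecan, read 11.08, 11.21 and 11.21 with DMSO, 10.53, 10.42 and 10.43 with thapsigargin and 11.61, 11.59 and 11.52 with both agents. The 3 groups did not overlap, and the combined arrays lay above the DMSO arrays. The fall with thapsigargin was -0.71 ± 0.06 (limma adjusted p = 1.16e-05). Adding forskolin raised the gene 2.16-fold (1.11 ± 0.06, limma adjusted p = 7.95e-06), the largest rise among the members in that comparison, and left it 0.41 ± 0.06 above DMSO (limma adjusted p = 0.000551).

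Adamts9 and Adamts5 fell and came back in part. Adamts9, which encodes another versican-cleaving enzyme, read 7.90, 8.03 and 8.18 with DMSO, 6.68, 6.69 and 6.72 with thapsigargin and 7.17, 7.18 and 7.19 with both. Its fall was 2.54-fold (-1.34 ± 0.07, limma adjusted p = 4.08e-07) and its rise with forskolin 0.48 ± 0.07 (limma adjusted p = 0.00268), so that it remained lower than with DMSO (-0.86 ± 0.07). Adamts5, which encodes the other main aggrecanase, read 10.99, 10.89 and 10.87, 10.04, 9.88 and 10.02 and 10.27, 10.17 and 10.36 in the same order. No groups overlapped, with the combined arrays between the others. Adamts5 fell with thapsigargin by 0.94 ± 0.07 (log2 change -0.94) and rose by 0.29 ± 0.07 with forskolin (limma adjusted p = 0.0385). That rise lost its call in a fit of the 6 arrays compared (limma adjusted p = 0.0615), after centring on array medians (0.0695) and without any 1 of 7 arrays. These were DMSO replicates 2 and 3 (limma adjusted p = 0.0592 and 0.0515), thapsigargin replicates 1, 2 and 3 (0.0743, 0.132 and 0.082) and combined replicates 1 and 3 (0.101 and 0.133), with log2 changes from 0.24 to 0.34 over all arrays left out in turn. The other proteoglycan-cleaving genes, Adamts8, Adamts15 and Adamts20, had group means below the median of all probe sets and were not called, though Adamts15 and Adamts20 were called lower than with DMSO in some alternatives.

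**Figure D2:**
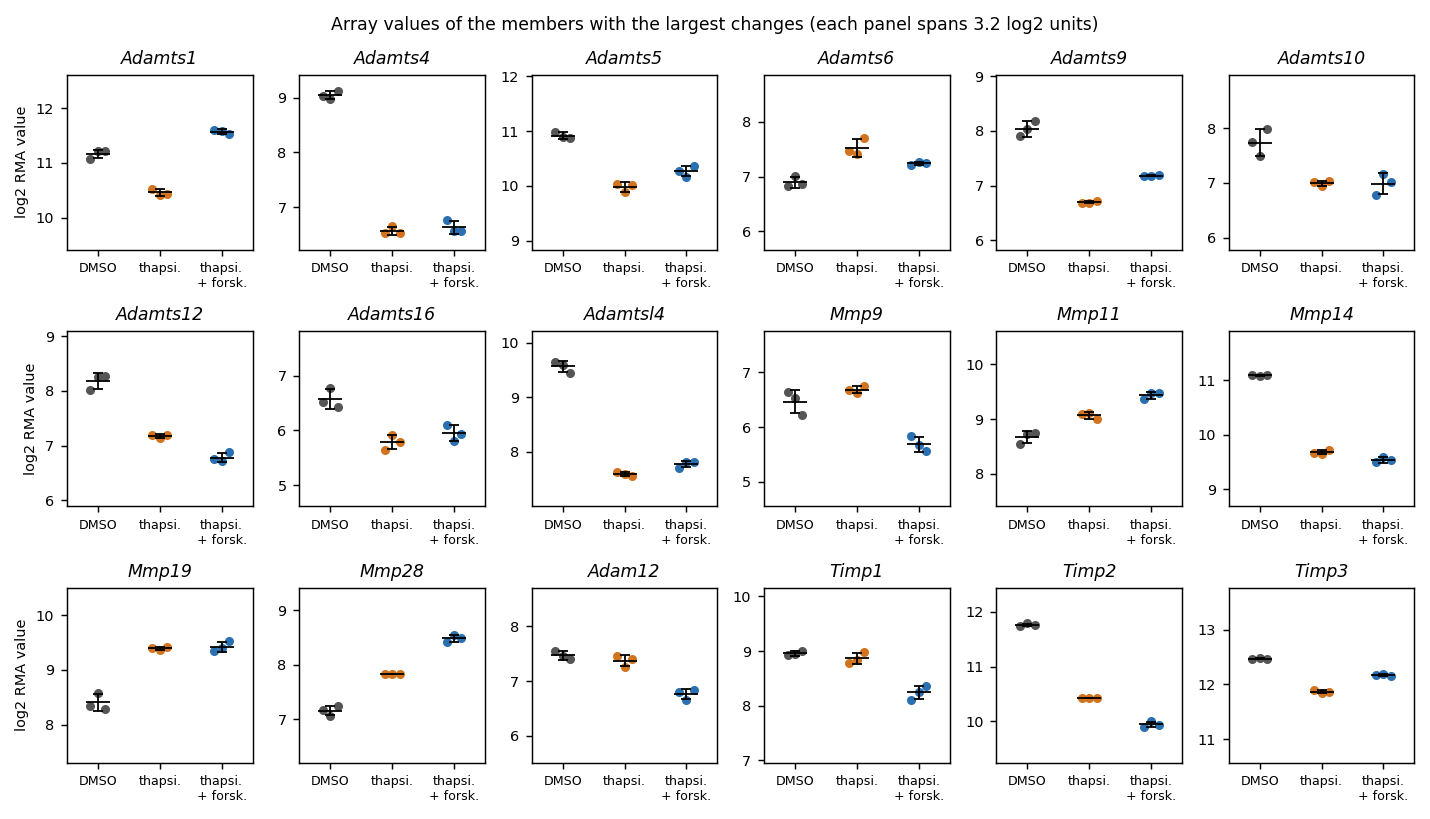
Log2 RMA values (vertical axis) of 18 members on each array by treatment (horizontal axis), with points for arrays and bars for the group mean ± SD of 3 arrays. Adamts1 falls from 11.08 to 11.21 with DMSO to 10.42 to 10.53 with thapsigargin and stands at 11.52 to 11.61 with forskolin added, while Mmp28 is higher in each successive group and Timp2 lower.

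Among the other ADAMTS genes 4 of 9 fell with thapsigargin (44.4%) and 1 rose (11.1%), where 16.9% and 18.2% of all genes did. Adamts12, whose product cuts the cartilage protein COMP, read 8.01, 8.25 and 8.27 with DMSO, 7.20, 7.14 and 7.20 with thapsigargin and 6.75, 6.72 and 6.88 with both agents. Each group lay below the one before it. The log2 change was -1.0 ± 0.08 with thapsigargin and -0.39 ± 0.08 with forskolin added (limma adjusted p = 6.37e-06 and 0.0143). The second call was lost without thapsigargin replicate 1 or 3 (limma adjusted p = 0.0587 and 0.0573) or combined replicate 1 or 2 (0.0541 and 0.0638), with changes of -0.36 to -0.39.

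Adamts16, Adamts10 and Adamts7 fell with thapsigargin by 0.78 ± 0.11, 0.74 ± 0.13 and 0.68 ± 0.06 (log2 changes -0.78, -0.74 and -0.68). With forskolin added they differed from thapsigargin alone by 0.16 ± 0.11, -0.01 ± 0.13 and 0.08 ± 0.06, and none of these passed the test. Adamts10 encodes an enzyme of fibrillin microfibrils, and Adamts7 another enzyme that cuts COMP. Adamts6 was the ADAMTS gene that rose. It read 6.82, 7.01 and 6.86, 7.46, 7.41 and 7.71 and 7.22, 7.26 and 7.24 with DMSO, thapsigargin and both, so that the combined arrays lay between the others without overlap. The rise with thapsigargin was 0.63 ± 0.09 (limma adjusted p = 0.000254), and the step with forskolin, -0.29 ± 0.09, did not pass (limma adjusted p = 0.0812), though it did after another quantile normalization and among the brighter genes alone.

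Of the procollagen-processing ADAMTS genes measured, Adamts3 was not called, and Adamts14 was 0.29 ± 0.09 lower (log2 change -0.29) in the combined group than with DMSO (limma adjusted p = 0.0341), with its second probe set at -0.08. That call was lost in the fit of the 6 arrays compared (limma adjusted p = 0.0753) and without DMSO replicate 1 or 3, thapsigargin replicate 1 or combined replicate 2 or 3 (0.0524 to 0.118). Among 5 ADAMTS-like genes 3 fell with thapsigargin (60.0%) and 0 rose, where 16.9% of all genes fell and 18.2% rose. Adamtsl4, which encodes a protein of fibrillin microfibrils, read 9.65, 9.59 and 9.45 with DMSO, 7.64, 7.59 and 7.57 with thapsigargin and 7.71, 7.81 and 7.81 with both. The fall was 3.89-fold (-1.96 ± 0.06, limma adjusted p = 2.52e-08). The combined arrays lay above the thapsigargin arrays without overlap, but the step of 0.17 ± 0.06 did not pass (limma adjusted p = 0.164). Adamtsl5 fell by 0.35 ± 0.09 (log2 change -0.35), Adamtsl1 at means below the median by 0.34 ± 0.10 (log2 change -0.34), and Adamtsl2 was not called in any comparison. The Adamtsl1 call was lost in the fit of the 6 arrays compared (limma adjusted p = 0.0508) and without DMSO replicate 1 or 2 or thapsigargin replicate 1 or 3 (0.0636 to 0.102). Adamtsl3 was at 0.18 ± 0.07 with thapsigargin and 0.20 ± 0.07 in the combined group against DMSO, without overlap, and neither passed (limma adjusted p = 0.09 and 0.0639). Both passed among the brighter genes alone and without thapsigargin replicate 1, and the first also after centring.

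Promoter windows were searched for a CRE half-site, the letters TGACG on either strand, to which cAMP-responsive CREB factors are known to bind. RefSeq windows of GRCm38.p6, from 250 bases before to 50 after a gene start, were matched by symbol for 51 of the 82 members. The half-site was present in 7 of these members (13.7%) and in 23.0% of 27025 genes with a window (20.8% of 32851 windows). Among the 8 members with a window that changed when forskolin was added, it was present in 2 of 5 that rose and 2 of 3 that fell. The full CRE TGACGTCA was found in 0 of 51 members and 2.03% of genes. A match is a description of letters and not a binding site, and a part of the half-site in the forskolin step was not tested. The windows printed are those of the members with both the half-site and a call when forskolin was added. The 4 windows are shown upstream of the start, with the half-site in capitals, for Adamts1 (chr16:85803114-85803363, minus strand), Adamts9 (chr6:92943535-92943784, minus strand), Timp1 (chrX:20869916-20870165, plus strand) and Adamts12 (chr15:11064523-11064772, plus strand), each 5′ to 3′ on the gene's strand.
Adamts1: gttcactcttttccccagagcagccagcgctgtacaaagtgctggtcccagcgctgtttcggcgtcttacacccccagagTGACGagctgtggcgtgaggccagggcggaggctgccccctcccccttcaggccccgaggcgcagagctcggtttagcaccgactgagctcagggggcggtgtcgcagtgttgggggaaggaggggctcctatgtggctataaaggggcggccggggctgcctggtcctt
Adamts9: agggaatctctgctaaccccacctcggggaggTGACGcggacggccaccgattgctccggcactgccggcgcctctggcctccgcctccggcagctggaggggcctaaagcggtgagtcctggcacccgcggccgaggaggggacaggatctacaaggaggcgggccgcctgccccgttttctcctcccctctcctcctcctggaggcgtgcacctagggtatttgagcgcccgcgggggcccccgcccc
Timp1: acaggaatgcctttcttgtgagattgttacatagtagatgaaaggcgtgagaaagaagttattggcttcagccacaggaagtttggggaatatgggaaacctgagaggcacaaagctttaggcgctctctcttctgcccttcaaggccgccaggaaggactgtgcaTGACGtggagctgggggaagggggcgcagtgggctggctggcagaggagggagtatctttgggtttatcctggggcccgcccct
Adamts12: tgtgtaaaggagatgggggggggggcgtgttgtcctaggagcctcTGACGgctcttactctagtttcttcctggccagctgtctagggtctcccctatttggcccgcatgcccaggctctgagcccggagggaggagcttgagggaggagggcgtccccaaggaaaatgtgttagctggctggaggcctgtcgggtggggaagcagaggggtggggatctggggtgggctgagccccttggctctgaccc
Counted from the gene start, the half-site begins at position -170 in Adamts1, at -218 in Adamts9, at -84 in Timp1 and at -205 in Adamts12, each on the gene's own strand. Adamts1 and Adamts9 rose with forskolin, while Timp1 and Adamts12 fell, so the letters were shared by members that moved in opposite directions. The other members that hold them were Adam10, Adamts3 and Adamtsl3, and these were not called in that comparison.

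Among 22 MMP genes 3 rose (13.6%) and 4 fell (18.2%) with thapsigargin, where 18.2% of all genes rose and 16.9% fell. The share that fell was thus near that of all genes. Mmp14, which encodes a membrane-type collagenase that activates Mmp2, read 11.09, 11.07 and 11.09 with DMSO, 9.67, 9.65 and 9.72 with thapsigargin and 9.50, 9.60 and 9.53 with both. It fell 2.64-fold with thapsigargin (-1.40 ± 0.05, limma adjusted p = 4.21e-08). The combined arrays were the lowest, without overlap, yet the step of -0.14 ± 0.05 did not pass (limma adjusted p = 0.16; 0.0342 with an intensity trend and robust prior). Mmp24, another membrane-type gene, fell by 0.28 ± 0.07 (log2 change -0.28, limma adjusted p = 0.0106), while Mmp16, Mmp17 and Mmp25 were not called. In some alternatives Mmp17 and Mmp25 were called lower in the combined group than with DMSO.

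The gelatinase genes Mmp2 and Mmp9, whose products cut denatured collagen and type IV collagen, differed in pattern. Mmp2 read 6.81, 6.57 and 6.38 with DMSO, 6.03, 6.20 and 6.22 with thapsigargin and 6.23, 6.17 and 6.04 with both, a fall of 0.43 ± 0.11 (log2 change -0.43, limma adjusted p = 0.0115) followed by a difference of -0.01 ± 0.11. Mmp9 read 6.64, 6.53 and 6.23, 6.67, 6.63 and 6.75 and 5.83, 5.67 and 5.56 in that order. Its DMSO and thapsigargin arrays overlapped (0.22 ± 0.11, limma adjusted p = 0.167), and all combined arrays lay below them. Adding forskolin lowered Mmp9 (log2 change -1.0 ± 0.11, limma adjusted p = 0.000557), to a mean of 5.69, below the median of all probe sets.

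The MMP genes that rose were Mmp19, Mmp28 and Mmp11. Mmp19, which encodes an enzyme of basement membrane proteins, read 8.35, 8.58 and 8.29 with DMSO, 9.40, 9.36 and 9.42 with thapsigargin and 9.35, 9.40 and 9.52 with both. It rose 1.97-fold with thapsigargin (0.98 ± 0.08, limma adjusted p = 8.58e-06), and the groups with thapsigargin overlapped (0.03 ± 0.08, limma adjusted p = 0.9). Mmp28, which encodes the epithelial enzyme epilysin, read 7.18, 7.07 and 7.24, 7.83, 7.83 and 7.83 and 8.42, 8.55 and 8.48 and rose in both steps, by 0.66 ± 0.06 and 0.65 ± 0.06 (limma adjusted p = 1.62e-05 and 0.000193), 2.49-fold in all. Its 3 thapsigargin values were exactly equal, which lowers the spread estimated for it.

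Mmp11, the stromelysin 3 gene, read 8.55, 8.72 and 8.75 with DMSO, 9.10, 9.11 and 9.0 with thapsigargin and 9.36, 9.47 and 9.47 with both. The groups did not overlap and ascended in that order. The steps were 0.40 ± 0.07 and 0.37 ± 0.07 (limma adjusted p = 0.00136 and 0.011), and a second probe set of the gene gave 0.36 and 0.23. The second step lost its call without thapsigargin replicate 3 (0.33, limma adjusted p = 0.0504) or combined replicate 2 (0.35, limma adjusted p = 0.0507).

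Most genes of a run of 10 neighbouring MMP genes lay below the median of all probe sets in these cells. The run holds the measured collagenase genes and the stromelysin genes Mmp3 and Mmp10, with other MMP genes. The stromelysin gene Mmp11 lies outside it. Mmp13, Mmp12, Mmp1b, Mmp3, Mmp1a, Mmp10, Mmp8, Mmp27, Mmp20 and Mmp7 lie next to each other in the RefSeq gene order, with at most 1 other protein-coding gene between neighbours. Their group means ran from 2.62 to 5.90, and 1 of the 10, Mmp10 with DMSO, exceeded that median. Mmp10 was 0.30 ± 0.10 lower (log2 change -0.30) in the combined group than with DMSO (limma adjusted p = 0.043) and was not called with thapsigargin (-0.20 ± 0.10), except with array weights and without DMSO replicate 1 (-0.30 in both). The combined call was lost in 11 of 16 settings, among them the fit of the 6 arrays compared (limma adjusted p = 0.0885), centring, another quantile normalization and the omission of any array but DMSO replicate 1. Without DMSO replicate 2 the change was -0.18 (limma adjusted p = 0.0834). Mmp12 fell with thapsigargin by 0.29 ± 0.10 (log2 change -0.29, limma adjusted p = 0.0394), between groups that overlapped. This call was lost in 9 of 16 settings: the 6 arrays compared, the trend and robust prior, centring (limma adjusted p = 0.0706, 0.0541 and 0.0538) and without DMSO replicate 1 or 2, thapsigargin replicate 2 or 3, or combined replicate 2 or 3 (up to 0.14). Mmp3 and Mmp13 were at -0.09 ± 0.11 and 0.18 ± 0.10 with thapsigargin and were not called (limma adjusted p = 0.584 and 0.234). The AP-1 letters TGANTCA were present in the promoter windows of 8 of these 10 genes. They were present in 13 of the 51 members with a window (25.5%), against 8.97% of all genes. As 8 of the 13 lie in this 1 run of neighbours, the members' share is not one of separate loci. None of the 8 passed the test when forskolin was added.

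**Figure D3:**
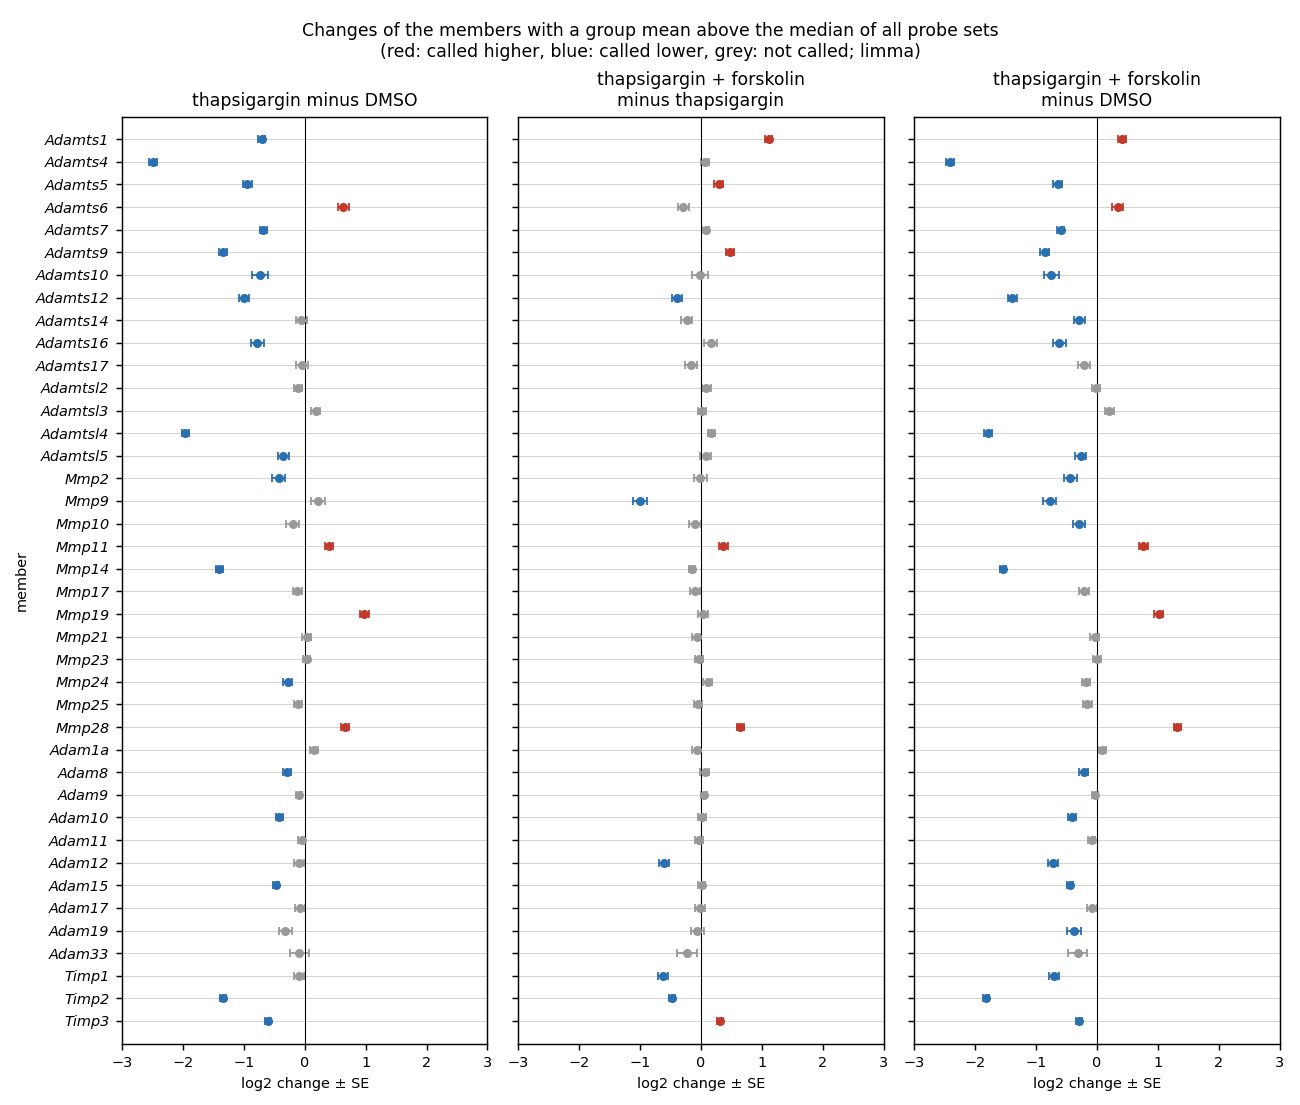
Log2 change ± SE (horizontal axis) of the 40 members with a group mean above the median of all probe sets (vertical axis) in each comparison, red where limma called the gene higher, blue where lower and grey where not called. With thapsigargin the largest fall is Adamts4 at -2.49 and the largest rise Mmp19 at 0.98, and with forskolin added Adamts1 stands at 1.11 and Mmp9 at -1.0.

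Of 33 ADAM genes 4 fell with thapsigargin (12.1%) and 0 rose, where 16.9% of all genes fell and 18.2% rose. The share that fell was thus below that of all genes. Among the 33, 24 had a mean over the 9 arrays at or below the median of all probe sets. Adam10, the main sheddase of Notch receptors and cadherins, read 10.64, 10.61 and 10.64 with DMSO, 10.11, 10.27 and 10.24 with thapsigargin and 10.17, 10.22 and 10.27 with both. Both thapsigargin groups lay below all DMSO arrays and overlapped each other. The fall was 1.34-fold (-0.42 ± 0.06, limma adjusted p = 0.0003). Adam15 fell by 0.47 ± 0.05 (log2 change -0.47, limma adjusted p = 7.45e-05), with its second probe set at -0.14. Adam8, best known from leukocytes, fell by 0.29 ± 0.07 (log2 change -0.29, limma adjusted p = 0.0129). Adam5, at means from 3.70 to 3.92, fell by 0.21 ± 0.06 (log2 change -0.21, limma adjusted p = 0.0173), a call lost with the trend and robust prior (0.0893) and without DMSO replicate 2 (0.0503) or thapsigargin replicate 3 (0.0623).

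Adam17, the sheddase of TNF and of several EGF receptor ligands, was not called. It read 8.65, 8.81 and 8.84, 8.69, 8.57 and 8.80 and 8.62, 8.72 and 8.69 with DMSO, thapsigargin and both, and the groups overlapped. The change with thapsigargin was -0.08 ± 0.08 (95% interval -0.25 to 0.09, limma adjusted p = 0.485). Adam9 lay at -0.09 ± 0.05 (95% interval -0.20 to 0.02, limma adjusted p = 0.189). It was called lower after another quantile normalization, at -0.18, and with an intensity trend and robust prior, at -0.09.

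Adam12, a membrane protease that cuts growth factor binding proteins and EGF receptor ligands, was the ADAM gene that moved with forskolin. It read 7.56, 7.46 and 7.40 with DMSO, 7.46, 7.26 and 7.40 with thapsigargin and 6.80, 6.66 and 6.83 with both. The DMSO and thapsigargin arrays overlapped (-0.10 ± 0.08, limma adjusted p = 0.362), and the combined arrays lay below both. The fall with forskolin was 1.53-fold (-0.61 ± 0.08, limma adjusted p = 0.00114). Adam19 was 0.38 ± 0.11 lower (log2 change -0.38) in the combined group than with DMSO (limma adjusted p = 0.0286), and its second probe set, at 4.05 with DMSO, differed by 0.04. The call was lost with the mean of both probe sets (limma adjusted p = 0.234) and without DMSO replicate 1 or 2 or combined replicate 1 (0.09 to 0.103). With thapsigargin alone Adam19 stood at -0.32 ± 0.11 against DMSO (limma adjusted p = 0.0574), called lower in some alternatives. The step with forskolin added was -0.06 ± 0.11 and was not called. Adam2, Adam3, Adam7, Adam18 and Adam32, known from the testis or sperm, had all group means below the median. They were not called, apart from a call of Adam32 as higher with thapsigargin after centring. Other dim ADAM genes were called. Adam5, a neighbour of Adam3 and Adam32, was lower with thapsigargin, as given above, and in the combined group against DMSO (log2 change -0.17, limma adjusted p = 0.0483). The latter call was lost in 12 of 16 settings. Adam24 was called higher than with DMSO in both thapsigargin groups without DMSO replicate 1 alone.

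Of 4 TIMP genes 2 fell with thapsigargin, and with forskolin added 1 rose and 2 fell. Timp2, the inhibitor that also takes part in Mmp2 activation by Mmp14, read 11.75, 11.79 and 11.76 with DMSO, 10.43, 10.43 and 10.43 with thapsigargin and 9.90, 10.00 and 9.94 with both. It fell in both steps without overlap. The thapsigargin step was 2.53-fold (-1.34 ± 0.05, limma adjusted p = 4.72e-08), the forskolin step -0.48 ± 0.05 (limma adjusted p = 0.000343), and the whole 3.53-fold (-1.82 ± 0.05). The 3 thapsigargin values of Timp2 were exactly equal, as for Mmp28. Such ties were found for 326 of 22180 genes in that group (1.47%).

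Timp3, the matrix-bound inhibitor of Adam17 and of the aggrecanases, read 12.46, 12.49 and 12.47, 11.89, 11.85 and 11.87 and 12.18, 12.19 and 12.15 with DMSO, thapsigargin and both. The combined arrays lay between the others. Its fall was -0.61 ± 0.05 and its rise with forskolin 0.31 ± 0.05 (limma adjusted p = 4.61e-06 and 0.00307), which left it 0.30 ± 0.05 below DMSO (log2 change -0.30). Timp1, an inducible inhibitor of many MMPs, read 8.92, 8.94 and 9.01 with DMSO, 8.79, 8.83 and 8.98 with thapsigargin and 8.11, 8.26 and 8.36 with both. DMSO and thapsigargin overlapped (-0.09 ± 0.08, limma adjusted p = 0.439), and forskolin lowered the gene 1.54-fold (-0.62 ± 0.08, limma adjusted p = 0.00137). Timp4, at means below the median, was not called in any comparison (0.17 ± 0.10 with thapsigargin, limma adjusted p = 0.243).

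Because an inhibitor and its enzyme can move alike or apart, the log2 value of the inhibitor was subtracted from that of the enzyme on the same array for 7 pairs known from textbooks. The pairs were picked with the values above in view, so the differences are a description without a test. Mmp14 minus Timp2 changed by -0.06 with thapsigargin, where the groups overlapped, and by 0.34 with forskolin added, where they did not. Mmp2 minus Timp2 changed by 0.91 and then by 0.47, both without overlap. Mmp2 itself stood at -0.43 and -0.01 in these steps and Timp2 at -1.34 and -0.48, so the difference rose while the enzyme gene did not. Mmp9 minus Timp1 changed by 0.31 and then by -0.38, without overlap, and the combined and DMSO arrays overlapped (-0.07).

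Relative to Timp3, Adam17 moved up by 0.53 with thapsigargin and back by -0.31 with forskolin, and Adam10 by 0.18 and -0.29, all without overlap. Adam17 itself was not called in either step (-0.08 and -0.01), and Adam10 stood at -0.42 and 0.02, while Timp3 stood at -0.61 and 0.31. The aggrecanase genes moved the other way with thapsigargin. Adamts4 minus Timp3 changed by -1.88 and then by -0.24, both without overlap, and Adamts5 minus Timp3 by -0.33 without overlap and then by -0.02, where the groups overlapped.

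**Figure D4:**
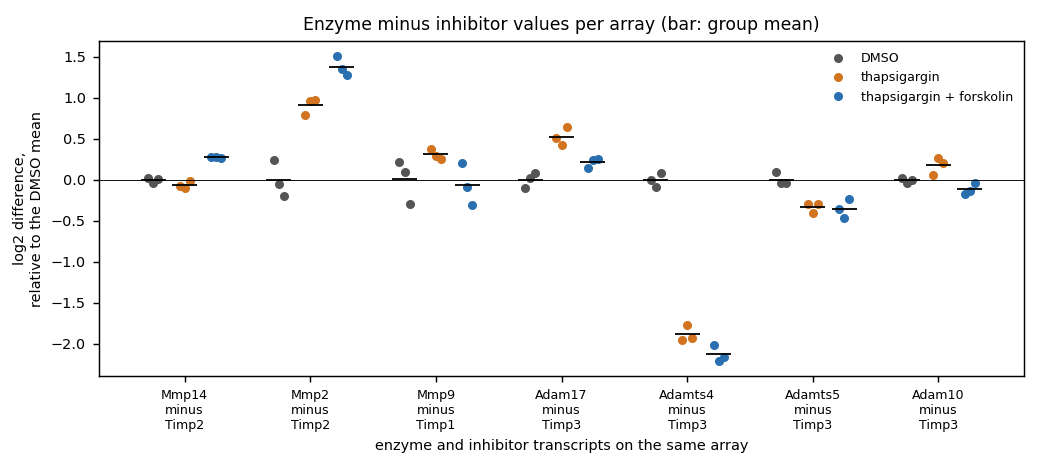
Log2 value of an enzyme gene minus that of an inhibitor gene on the same array, relative to the DMSO mean of each pair (vertical axis), for 7 pairs (horizontal axis), with a point per array and a bar for the group mean. Mmp2 minus Timp2 is higher by 0.91 with thapsigargin and by 1.38 with both agents, though Mmp2 itself is lower, at -0.43 and -0.44. Adamts4 minus Timp3 is lower, at -1.88 and -2.12.

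In the RefSeq gene order 34 of the 82 members formed 10 runs of neighbours, and 3 of the runs held a called gene. The run of Adamts1 and Adamts5 was the only one of the 10 in which all members exceeded the median and were called. Both fell with thapsigargin and rose with forskolin, by the values above. In the run of Adam18, Adam3, Adam5, Adam32 and Adam9, group means ran from 3.70 to 11.29, and the dim Adam5 was the 1 gene called.

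A list of activators, carriers and other inhibitors also held procollagen C-proteinase genes and their enhancers. Its genes fell more often than they rose with thapsigargin. Of 30 such genes 17 fell (56.7%) and 1 rose (3.33%), where 16.9% and 18.2% of all genes did. Their median log2 change was -0.34, against -0.04 over all genes. Of the 30, 22 had a 9-array mean above the median of all probe sets. Among genes that bright 25.4% fell and 29.8% rose with thapsigargin. The falls included those of Pcsk6, a proprotein convertase, at -2.03, Pcolce, an enhancer of procollagen cleavage, at -1.75, the uptake receptor gene Lrp1 at -1.55 and Tspan17 at -1.42. The gene that rose was Tspan15 at 0.87, a tetraspanin partner of Adam10, named after its value was seen. Other tetraspanin partners of Adam10 in the list were called lower: Tspan17 as given, Tspan14 at -0.76, Tspan33 at -0.54 and Tspan5 at -0.32. Tspan10 was not called. The partners of Adam17 were also lower: Frmd8 at -0.91, Rhbdf1 at -0.49 and Rhbdf2 at -0.25, named after their values were seen. The membrane-anchored MMP inhibitor gene Reck stood at -0.77 and Bmp1, the procollagen C-proteinase gene, at -1.16, named likewise. Adding forskolin raised 4 of the 30 (13.3%) and lowered 1 (3.33%), where 3.7% and 4.17% of all genes did. These were Pcsk5 at 1.52, Tspan33 at 0.52, Tspan14 at 0.49, Tspan15 at 0.33 and Thbs1 at -0.33. Against DMSO, 15 were lower (50.0%) and 2 higher (6.67%) in the combined group, where 16.7% and 17.9% of all genes were.

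Of 31 measured genes for membrane proteins that ADAMs shed, 19 fell (61.3%) and 1 rose (3.23%) with thapsigargin, with a median of -0.52. Of all genes 16.9% and 18.2% did. The chemokine gene Cx3cl1 stood at -2.67, Vcam1 at -1.99, L1cam at -1.78 and the HGF receptor gene Met at -1.31, and the gene that rose was Nrg1 at 0.23, named after its value was seen. Adding forskolin raised 6 (19.4%) and lowered 6 (19.4%), with Alcam at 1.10, Sdc1 at 0.79, L1cam at 0.68 and Met at -0.56. In the combined group 17 were lower (54.8%) and 4 higher (12.9%) than with DMSO. Of 27 measured matrix substrates 11 fell (40.7%) and 1 rose (3.7%) with thapsigargin, where 16.9% and 18.2% of all genes did. Their median was -0.12, with Nid2 at -3.05, Nid1 at -1.76, the biglycan gene Bgn at -1.62 and Col4a1 at -1.14. Adding forskolin lowered 4 (14.8%) and raised 2 (7.41%), with Nid1 at -1.04, Nid2 at 0.84, Ltbp1 at -0.53 and Lama5 at -0.49. The combined group had 14 lower (51.9%) and 1 higher (3.7%) than DMSO. The aggrecanase substrate genes Acan and Vcan were not called in any comparison, at DMSO means of 5.86 and 5.07. Of all genes 3.7% were called higher and 4.17% lower with forskolin added, and 17.9% and 16.7% in the combined group against DMSO. Of the shedding substrates 25 and of the matrix substrates 21 had a 9-array mean above the median of all probe sets. Among genes that bright 25.4% fell and 29.8% rose with thapsigargin.

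**Figure D5:**
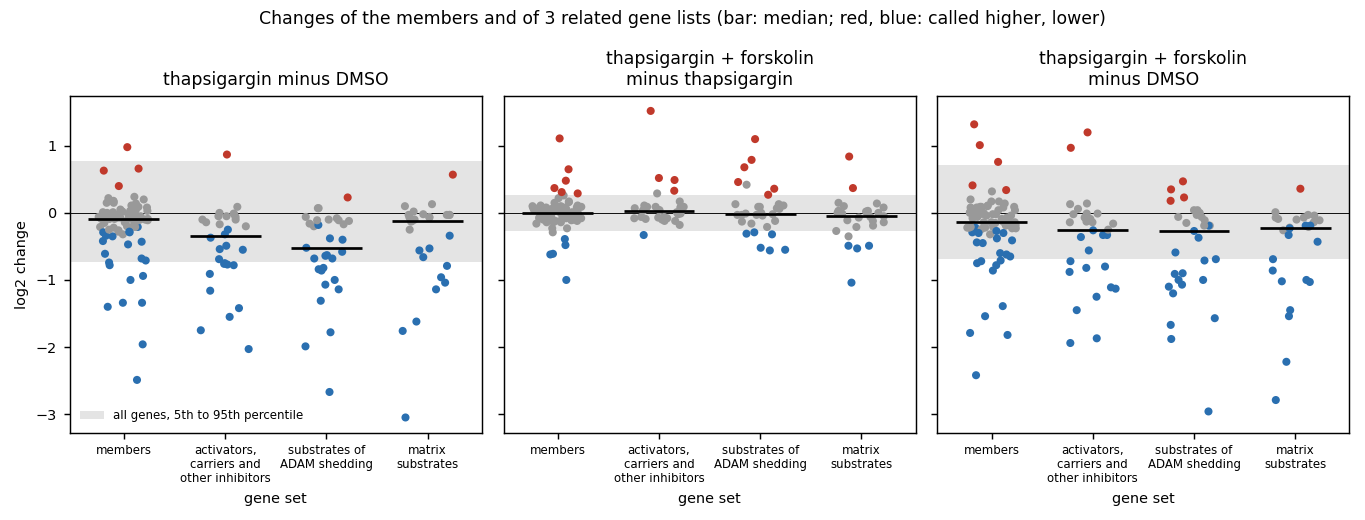
Log2 change (vertical axis) of the 82 members and of the genes of 3 related lists (horizontal axis) in each comparison, with a point per gene, red or blue where limma called it higher or lower, a bar for the median and a grey band for the 5th to 95th percentile of all genes. With thapsigargin the medians are -0.09 for the members, -0.34 for the activators, carriers and other inhibitors, -0.52 for the substrates of shedding and -0.12 for the matrix substrates.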

How the data were processed

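RNA of 9 samples was measured on single-colour arrays, 3 per group. The authors deposited log2 values for 41345 probe sets. Affy and RMA are named in the submitters' processing notes, without versions, and neither annotation release nor genome build was stated (not given in the sources used here). Raw scans were not analysed here, so signal over background is unknown, and the number of arrays limits the precision.

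Of these probe sets 23521 had 1 gene symbol, 1814 several and 16010 none. For each symbol the probe set brightest on average over the 9 arrays was kept, which gave 22180 genes. For 82 of 82 members the symbol matched RefSeq (GRCm38.p6) through the Entrez ID, and 6 members had more than 1 probe set. Groups and replicate numbers came from the sample titles. A limma fit of group means (limma 3.58.1, R 4.3.3) over all arrays, with 6 residual degrees of freedom, was tested with eBayes, two-sided, with calls made below an adjusted p of 0.05 (Benjamini-Hochberg). Errors are limma standard errors and intervals 95%. The fit was tested on simulated data.

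Named are, per comparison, up to 8 called rises and 8 falls of members whose group mean exceeded the median of all probe sets, without overlap, dim called members, 18 fixed members, the 10 with the highest means and, per related list, up to 4 called genes. Further called members and genes are named beyond this. ADAMs were kept as 1 class. Members and lists were chosen with earlier results of these data known. Alternatives were a fit of the 6 arrays compared, array weights, an intensity trend with a robust prior, centring on medians, the mean of a gene's probe sets, leaving out each array, blocking on the replicate number, quantile normalization again and leaving out dim genes. Correlations of the deviations of same-numbered arrays from their group means ran from -0.074 to 0.247 over 9 pairs, so the numbers were not taken to pair the arrays. Plots used matplotlib 3.10.9 (Python 3.11.15).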

Additional observations from a re-analysis of the deposited data

How the results depend on the processing

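With thapsigargin against DMSO, counts of members called ran from 4 to 6 higher and 18 to 24 lower over all alternatives, and from 4 to 5 and 18 to 24 when each array was left out. With forskolin added they ran from 4 to 6 higher and 4 to 6 lower, and from 4 to 6 and 4 to 5 with an array left out. For the combined treatment against DMSO they ran from 5 to 6 and 18 to 25, and from 5 to 6 and 18 to 24. In a fit blocked on the replicate number (replicate block) the counts were 4 higher and 22 lower, 6 and 5, and 5 and 25; correlations of same-numbered arrays (-0.074 to 0.247) lay within the range of differently numbered ones (-0.302 to 0.254), though all pairs of replicate 3 were positive (0.184 to 0.226), so the pairing is not established and the block is given as a setting alone. The number of members above the median of all probe sets ran from 38 to 39, 35 to 37 and 34 to 35 over the arrays left out, with 35 in the combined group without its replicate 3.

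Of 64 called log2 changes followed, 52 kept their call and direction under every setting run for them, and 0 reversed. Calls were lost in some settings for Adam5, Adamtsl1 and Mmp12 with thapsigargin, for Adamts5, Adamts12 and Mmp11 with forskolin added, and for Adam5, Adam8, Adam19, Adamts14, Adamtsl5 and Mmp10 in the combined group against DMSO. The causes were not tested. Adam19, Adam5, Adamtsl1, Mmp10 and Mmp12 lie at or below the median of all probe sets in their 9-array mean and have no value in the filter on dim genes.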
